A study of Gallus gallus with 23 samples.

Results

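The cytosolic ribosomal protein genes described here are those whose single annotated gene symbol is RPL, RPS or RPLP followed by a digit. Kinases named RPS6K and names that end in L1 were left out, and where a gene had several probe sets the one with the highest mean over the 23 arrays was kept. This gave 51 genes of the 11528 genes with a single symbol on the array, namely 30 of the large subunit, 18 of the small subunit, the lateral stalk gene RPLP1, RPL3L and RPS19BP1. RPL3L is the muscle paralogue of RPL3, and RPS19BP1 matches by its letters only, since it codes for a protein that binds RPS19. The rule left out 9 RPS6K kinases, the names RPL22L1, RPL26L1 (for which RefSeq gives the synonym RPL26) and RPL7L1, and 3 probe sets that carry RPL11 or RPL36 beside a second symbol.

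The study measured RNA from embryonic chicken growth cartilage, taken from the distal end of the femur and the proximal end of the tibiotarsus (TBT), the main bone of the lower hindlimb. Each sample was a pool of tissue from 4 embryos. At embryonic day (E) 12 and at E13 there were control femur and control TBT samples, with n = 3 arrays in each of the 4 groups. At E15 there were immobilised femur (n = 3), control femur (n = 2), immobilised TBT (n = 3) and control TBT (n = 3). Immobilised embryos had received decamethonium bromide (DMB) from E10, an agent that keeps the neuromuscular junction depolarised and so paralyses the muscles rigidly, and controls received the vehicle, Tyrode's solution. The drug acts on the whole embryo, and the authors left out 1 of 24 arrays after principal component analysis. The labels do not give strain, sex or the embryos behind each pool, so the p-values measure the spread between these pools.

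Ribosomal proteins wrap the RNA of the small subunit, which reads the message, and of the large subunit, which joins the amino acids. In vertebrates their mRNAs start with a terminal oligopyrimidine (TOP) tract, through which translation, and to some degree stability, of the whole class responds to the kinase mTOR. Growth cartilage chondrocytes divide, swell and secrete a large matrix, so their demand for ribosomes is high. The study's question for these groups was how gene expression differs between the femur and the TBT, with stage and without movement.

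The authors deposited log2 expression values that they had made by robust multi-array average (RMA). Array medians lay between 5.78 and 5.85 and 99th percentiles between 11.67 and 11.86. Of the 20804 probe sets, 11004 had a standard deviation above 10 on the linear scale and were tested with limma in 1 fit of 8 group means over 23 arrays, with Benjamini-Hochberg adjustment over all of them. A gene is called at an adjusted p under 0.05. In the comparisons below, percents and median differences given for all probe sets are over these 11004. Cartilage markers were bright, with ACAN, MATN1 and HAPLN1 averaging 12.50, 12.88 and 12.91, and SOX9 9.32. Of other tissues, fibrous COL1A1 averaged 13.43, erythroid HBAD 12.12 and skeletal muscle ACTA1 8.88. These levels do not show how pure the cartilage was. The last digits of the array descriptions give codes 05, 07 and 09. All E15 femur arrays carry 05 and all E15 TBT arrays 07 or 09, so at E15 element and code cannot be told apart directly, while immobilised and control femur share 05.

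Most of the ribosomal protein genes were among the brightest probe sets of the array. Of the 51 genes, 50 passed the filter on low spread. RPL3L did not, at 2.38 to 3.59 over the 23 arrays, which places it at percentile 9.8 of all 20804 probe sets. The highest means were those of RPL32 (12.78), RPL9 (12.54) and RPS3 (12.47), and the lowest past the filter those of RPS28 (6.39), RPL35A (6.91) and RPS13 (7.61). A probe set's level depends on its probes as well as on its mRNA, so this order is not one of abundance. The span of the 8 group means was largest for RPL32 (0.85) and RPS13 (0.69) and smallest for RPL27A (0.08) and RPS24 (0.09), which are proteins of the large and the small subunit. For 8 genes a second probe set exists, at a lower mean than the one kept, and the 2 probe sets of a gene correlated over the 23 arrays at r = 0.54 for RPL3 down to -0.36 for RPL17.

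One group stood below the rest. For 38 of the 50 genes the lowest of the 8 group means was that of E15 control femur, and for 1 gene, RPL32, E15 control femur had the highest. The highest mean fell to E15 immobilised TBT for 19 genes and to E15 immobilised femur for 12. The matching shares of all probe sets were not counted, and E15 control femur has 2 arrays where the other groups have 3. These are the arrays that remained after the authors left out the outlier. Each gene was set against its own mean over the 23 arrays and the median over the 50 genes was taken for each array. This median was -0.03, 0.11 and 0.03 in immobilised femur, against -0.13 and -0.10 in control femur at E15. It was 0.08, 0.08 and 0.04 in immobilised TBT, against 0.03, -0.02 and 0.01 in control TBT. The 12 arrays of E12 and E13 ran from -0.09 to 0.09, so both control femur arrays at E15 lay below every other array.

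**Figure D1:**
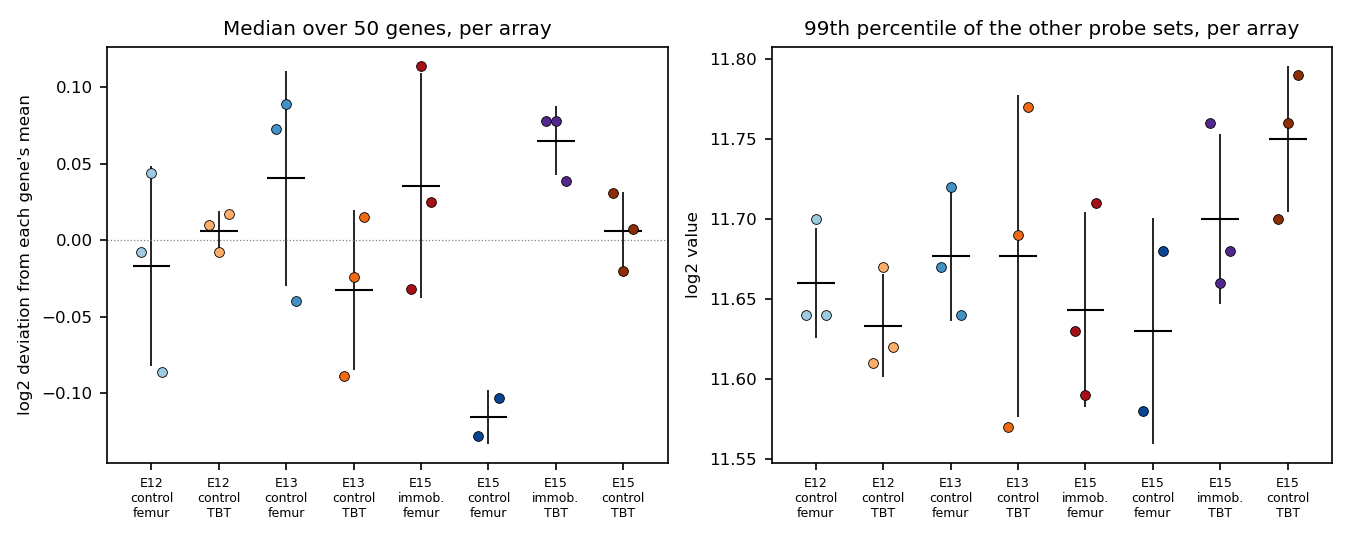
Left, the median over the 50 ribosomal protein genes of the log2 deviation from each gene's mean, 1 point per array, by group. Right, the 99th percentile of the log2 values of all other probe sets on the same arrays. Horizontal lines are group means and vertical lines 1 SD. The 2 arrays of E15 control femur, at -0.13 and -0.10, are the lowest on the left. On the right, at 11.58 and 11.68, they lie within the range of the other groups, whose lowest array is at 11.57. They lie below all E15 control TBT arrays there (11.70 to 11.79).

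E15 control femur is part of 5 comparisons below: femur against TBT at E15, immobilised against control femur, the later against the earlier stages of the femur, and both contrasts of effects between the elements. These therefore share the same 2 arrays and are not independent of each other.

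At E15 most ribosomal protein genes read lower in control femur than in control TBT, by small amounts, and no single gene passed the test. Of the 50 genes, 46 had a difference of 0 or below and 4 above. The median was -0.14 on the log2 scale, while the median over all probe sets was 0.01. Both femur arrays lay below every TBT array for 32 of the 50 genes, against 16.1% of all probe sets. No gene was called, as were 0.209% of all probe sets in either direction. At an unadjusted p under 0.05, 13 genes were lower, against 7.31% of all probe sets. Differences of 0 or below were as general in the small subunit (18 of 18 genes, median -0.16) as in the large subunit (27 of 30, median -0.13). RPS16, of the small subunit, had the same mean of 11.75 in both groups.

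The genes with the lowest p-values here were RPS28, RPLP1 and RPL22. RPS28, of the small subunit, read 5.92 and 5.97 in E15 control femur and 6.40, 6.47 and 6.47 in E15 control TBT. The femur arrays were thus the lower ones without overlap, and the difference was -0.50 (SE 0.17, adjusted p = 0.195). RPLP1, an acidic protein of the stalk that recruits elongation factors, read 10.98 and 11.04 in femur, against 11.35, 11.24 and 11.28 in TBT, a difference of -0.28 (SE 0.10, adjusted p = 0.203). For RPL22, of the large subunit, the values were 10.93 and 10.86 in femur and 11.33, 11.16 and 11.11 in TBT, with a difference of -0.30 (SE 0.11, adjusted p = 0.206). None of the 3 passed the threshold.

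Of the ribosomal protein genes that the study's supplement lists for this comparison, RPS7, RPL4, RPL3, RPL10A, RPS4Y1 (synonym RPS4X) and RPLP1 are members here. That list was drawn from these same arrays, so their direction is no independent evidence. Their differences were -0.08 for RPS7, a small subunit protein, -0.13 for RPL4, which lines the exit tunnel, -0.09 for RPL3, which lies close to the peptidyl transferase centre, -0.23 for RPL10A and -0.23 for RPS4Y1. All 6 had both femur arrays below the 3 TBT arrays, and their adjusted p-values lay between 0.203 and 0.636. RPL10A, a protein of the flexible L1 stalk, read 11.01 and 11.06 in femur and 11.28, 11.25 and 11.27 in TBT. After a further quantile normalization, which forces all arrays to 1 distribution, RPS7 and RPL3 turned to 0.03 and 0.003 and RPL4 shrank to -0.03.

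Other measures moved with this comparison. The 99th percentile of all probe sets other than the ribosomal protein genes was 11.58 and 11.68 in E15 control femur, against 11.70, 11.76 and 11.79 in E15 control TBT. After the quantile normalization the median difference of the 50 genes was -0.07 and 31 of them were below 0. Of the marker lists, none with a called gene, leukocytes and osteoclasts had a median difference of -0.35 over 6 genes, 5 below 0 and 1 at 0.61, with summed linear signals of 2668 to 2755 in femur and 2422 to 3448 in TBT. Fibrous tissue markers were above 0 in 6 of 6 (median 0.21), cartilage markers below 0 in 8 of 11 (median -0.04) and erythroid markers below 0 in 4 of 4 (median -0.12). Their summed signals in femur and TBT were 26493 to 30369 and 23114 to 29004 for fibrous tissue, 63232 to 63581 and 62686 to 68615 for cartilage, and 9079 to 10080 and 10655 to 12166 for erythroid cells (5 genes, 4 of them tested). One of these 4, listed as ALAS2, was matched through an alias to a probe set annotated ALAS1. The part of each in the result was not tested. In bulk tissue, fewer cells that hold a transcript and less of it per cell cannot be told apart.

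Control femur at E15 was also set against control femur at E12 and E13, the mean of both earlier groups. RPS13, RPS29, RPL4, RPL15 and RPLP1 fell, and no gene rose. This is 5 of 50 genes lower, against 6.97% of all probe sets lower and 12.2% called in either direction. The median difference was -0.12, with 43 genes below 0 (34 after quantile normalization), and the median of all probe sets was 0.01. At an unadjusted p under 0.05, 16 genes were lower, against 14.9% of all probe sets, and 17 genes had both E15 arrays below all 6 earlier arrays, against 13.5%.

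RPS13, a small subunit protein, had the largest fall. It read 7.15 and 6.96 in E15 femur, against 7.79, 7.84 and 7.57 at E12 and 7.91, 7.81 and 7.47 at E13. Every earlier array was higher, and the difference was -0.68 (SE 0.15, adjusted p = 0.00868). RPS29, a small zinc-binding protein of the same subunit, read 11.58 and 11.61 at E15, against 12.11, 12.20 and 11.81 at E12 and 12.14, 12.24 and 11.95 at E13. It also had no overlap, with a difference of -0.48 (SE 0.12, adjusted p = 0.0142).

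RPL4 read 11.92 and 11.91 at E15, against 12.16, 12.09 and 12.19 at E12 and 12.24, 12.16 and 12.13 at E13. The pools of each stage lay close together, and the difference of -0.25 had an SE of 0.06 (adjusted p = 0.0142). RPL15, of the large subunit, read 10.90 and 11.18 at E15, against 11.55, 11.48 and 11.35 at E12 and 11.45, 11.67 and 11.29 at E13. Its E15 arrays differed by more than those of RPL4, and its difference was -0.42 (SE 0.12, adjusted p = 0.0295). RPLP1 read 10.98 and 11.04 at E15, against 11.25, 11.36 and 11.14 at E12 and 11.37, 11.44 and 11.20 at E13. It was the weakest of the 5 calls, at -0.28 (SE 0.09, adjusted p = 0.0468).

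These calls lean on the 2 arrays of E15 control femur. A fit without replicate 1 or 2 of that group leaves 1 array in it, so only differences are given. They were -0.772 and -0.582 for RPS13, -0.465 and -0.495 for RPS29, and -0.252 and -0.242 for RPL4. For RPL15 they were -0.285 and -0.565, and for RPLP1 -0.253 and -0.313. Of the earlier arrays, 13 genes were called without E12 control femur replicate 3. The count was 10 without E13 control femur replicate 3 and 3 without E12 control femur replicate 1. RPLP1 lost its call without E12 control femur replicate 1 or 2 or E13 control femur replicate 1 or 2 (adjusted p 0.0676 to 0.084), and RPL15 without E12 control femur replicate 1 (0.0515) or E13 control femur replicate 2 (0.0514). Within array code 05, with 2 arrays of E15 and 2 of E12, the median difference was -0.14 and 41 genes were below 0. All E13 control femur arrays carry code 07, so E13 has no part in this value. Markers of other cells changed over the same stages. Of 6 leukocyte and osteoclast markers 5 rose (summed linear signal 2668 to 2755 at E15, against 914 to 986 at E12 and 1023 to 1342 at E13), as did 3 of 4 erythroid, 3 of 7 hypertrophic, 2 of 7 endothelial and 1 of 6 fibrous tissue markers. The hypertrophic list holds PTH1R through a probe set annotated PTH2R. Among 11 cartilage markers 3 fell, with summed signals of 63232 to 63581 at E15, 62774 to 64430 at E12 and 63171 to 67989 at E13, and 1 of 8 skeletal muscle markers fell. Their part in the fall of the 5 genes was not tested.

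In control TBT the same stages gave a median difference of 0.02, with 33 genes above 0 and 17 below, and after quantile normalization -0.01, with 20 above and 30 below. No gene was called, against 9.46% of all probe sets, and 3 had an unadjusted p under 0.05, against 24.9%. RPL22 came nearest to a rise. It read 11.33, 11.16 and 11.11 in E15 TBT, against 11.01, 10.87 and 11.03 at E12 and 10.78, 11.02 and 10.97 at E13. All E15 arrays were the higher ones, and the difference was 0.25 (SE 0.09, adjusted p = 0.0693). RPL4 differed by -0.14 (SE 0.05, adjusted p = 0.0882) and RPS13 by -0.27 (SE 0.13, adjusted p = 0.199), both below 0 as in the femur. In the TBT, too, 5 of 6 leukocyte and osteoclast markers and 3 of 4 erythroid markers rose with stage.

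The stage change of the femur minus that of the TBT had a median of -0.16 over the genes, with 45 of 50 below 0. After quantile normalization it was -0.08, with 29 below 0 and 21 above. None of the genes was called, nor was any probe set (0.0%), and 12 genes were lower at an unadjusted p under 0.05, while 10.5% of all probe sets passed that limit in either direction. The lowest p-values were those of RPL22 (-0.36, SE 0.13, adjusted p = 0.363), RPL29 (-0.26, SE 0.10, adjusted p = 0.396), a large subunit protein, and RPL10A (-0.29, SE 0.12, adjusted p = 0.403). A different stage course in the 2 elements was therefore not shown for any single gene.

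**Figure D2:**
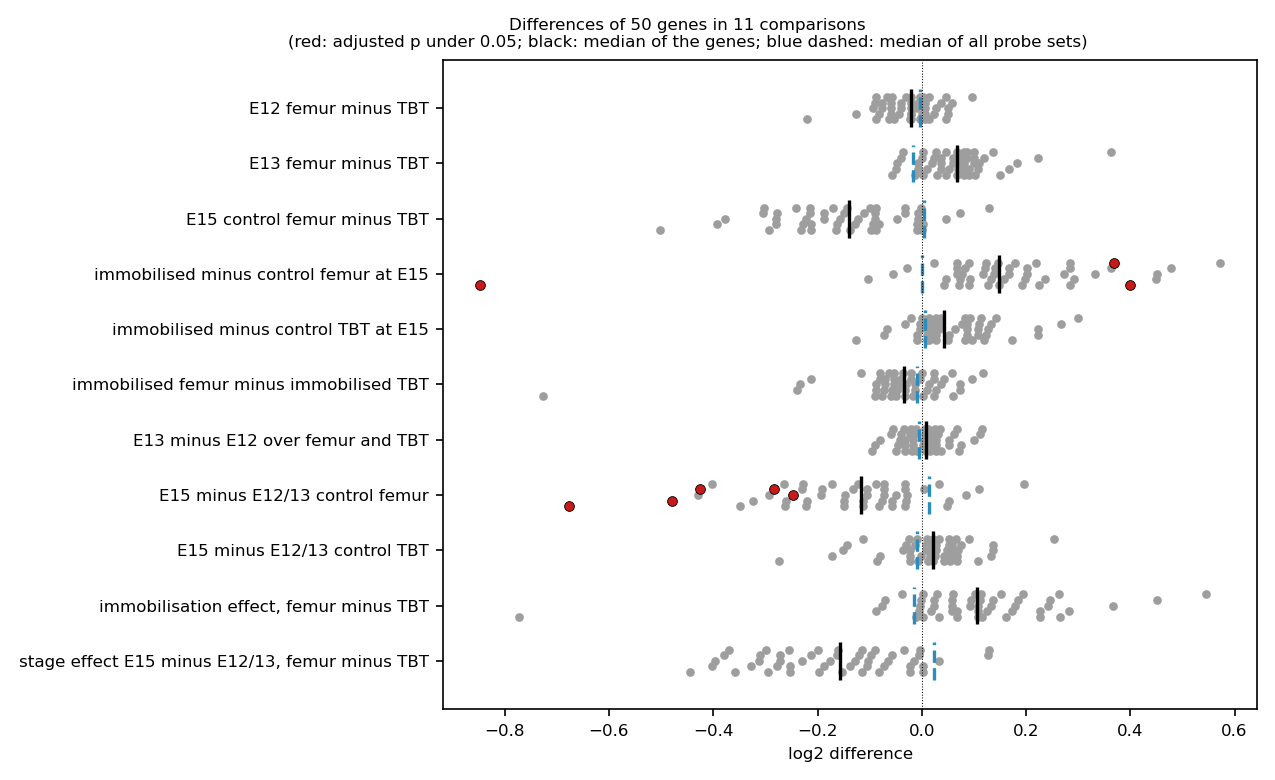
The log2 difference of each of the 50 genes (points) in each of 11 comparisons, 1 row per comparison, with the median of the genes (black line) and of all probe sets (blue dashed line). Red points are genes with an adjusted p under 0.05. In the rows that use E15 control femur the medians lie from -0.16 to 0.15, in the others from -0.03 to 0.07, and the point at -0.85 is RPL32.

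Immobilisation had a mostly positive sign in the femur at E15. RPLP1 and RPL38 rose and RPL32 fell. These are 2 of 50 genes higher, against 1.89% of all probe sets, and 1 lower, against 2.5%, with 4.39% of all probe sets called in total. The median difference was 0.15, with 46 genes above 0 and 4 below, and the median of all probe sets was 0.00. At an unadjusted p under 0.05, 18 genes were higher, against 9.49% of all probe sets, and 28 genes had all immobilised arrays above both control arrays, against 18.6%. Both subunits shared the sign, with 17 of 18 small and 27 of 30 large subunit genes above 0.

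RPLP1 read 11.28, 11.63 and 11.32 in immobilised femur, against 10.98 and 11.04 in control femur. All 3 were above both controls, replicate 2 by the most, and the difference was 0.40 (SE 0.10, adjusted p = 0.0297), a fold of 1.32. RPL38, a large subunit protein that in the mouse is needed for the normal pattern of the axial skeleton, read 11.46, 11.82 and 11.53, against 11.17 and 11.30. It too had no overlap, with a difference of 0.37 (SE 0.10, adjusted p = 0.0396) and a fold of 1.29. Without immobilised femur replicate 2 the differences were 0.29 (adjusted p = 0.0975) for RPLP1 and 0.26 (adjusted p = 0.121) for RPL38. Without control femur replicate 1 or 2, which leaves 1 control array, the differences were 0.37 and 0.43 for RPLP1 and 0.303 and 0.433 for RPL38.

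RPL32, the brightest of the genes, went the other way. It read 12.38, 11.41 and 12.61 in immobilised femur, against 12.88 and 13.08 in control femur. All were below both controls, with replicate 2 far below its 2 companions, and the difference over all arrays was -0.85 (SE 0.22, adjusted p = 0.0402), a fold of 0.556. Without that replicate it was -0.48 (adjusted p = 0.053). With 1 control array left in the fit it was -0.947 without control femur replicate 1 and -0.747 without control femur replicate 2. On the same replicate 2, 15 of the 50 genes had their highest value of all 23 arrays, and 44 of the 50 lay above their own mean. The matching shares of all probe sets were not counted. Immobilised TBT replicate 1 had 41 genes above their own mean and E13 control femur replicate 2 had 39. With immobilised femur replicate 2 left out no gene was called in this comparison.

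A further 5 genes, all of them higher, had adjusted p-values from 0.0696 to 0.0971 and were not called. The share of all probe sets in that range was not counted. RPS28 read 6.45, 6.42 and 6.68 in immobilised femur and 5.92 and 5.97 in control femur, a difference of 0.57 (SE 0.17, adjusted p = 0.0696). RPL23A, which sits at the exit of the tunnel, differed by 0.48 (SE 0.15, adjusted p = 0.07), from values of 10.75, 11.24 and 10.87 against 10.41 and 10.54. The arrays of both genes did not overlap. RPS4Y1 differed by 0.29 (adjusted p = 0.0818), RPS27A, which is made as a fusion with ubiquitin, by 0.45 (adjusted p = 0.0845), and RPL4 by 0.20 (adjusted p = 0.0971). RPS7, RPL3 and RPL10A gave 0.08, 0.14 and 0.28 with adjusted p-values of 0.623, 0.34 and 0.127. RPS6, the small subunit protein that S6 kinase phosphorylates, read 12.22, 12.43 and 12.09 in immobilised femur and 12.32 and 12.38 in control femur, and these ranges overlapped.

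**Figure D3:**
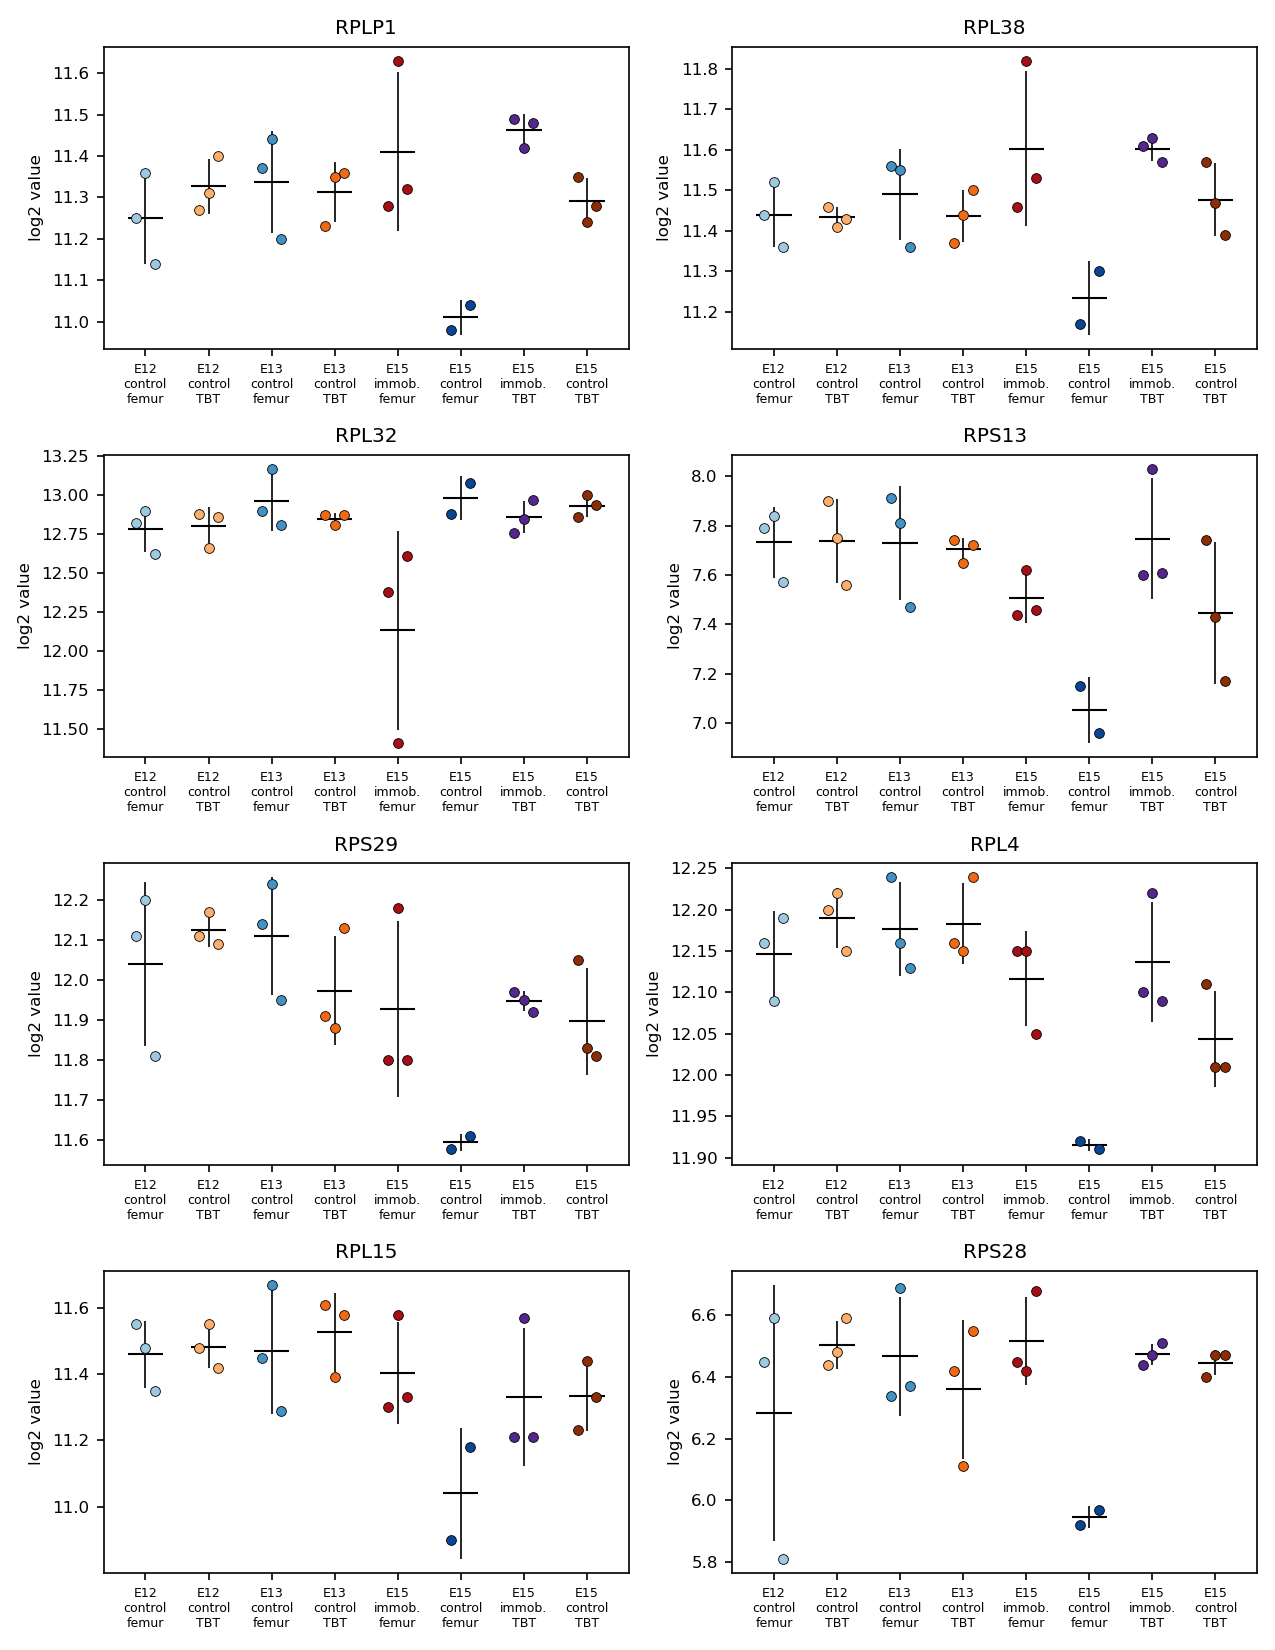
Log2 values of 8 genes (RPLP1, RPL38, RPL32, RPS13, RPS29, RPL4, RPL15 and RPS28), 1 point per array by group, with group means (horizontal lines) and 1 SD (vertical lines); each panel has its own axis, which does not start at 0. The 2 points of E15 control femur are the lowest of all 23 for RPLP1, RPL38, RPS13, RPS29, RPL4 and RPL15, for RPS28 E12 control femur replicate 3 at 5.81 is lower, and for RPL32 the low point at 11.41 is immobilised femur replicate 2.

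In the TBT immobilisation gave a median of 0.04, with 40 genes above 0 and 9 below, and 0.08 after quantile normalization as well as with array code as a block. Within code 07 it was 0.07, from 1 immobilised and 2 control arrays, and within code 09 it was 0.09, from 2 immobilised arrays and 1 control array. There was no call, against 5.74% of all probe sets, and 2 were higher at an unadjusted p under 0.05, against 10.1%. All immobilised arrays were above all controls for 13 genes, against 13.1% of all probe sets. The lowest p-values belonged to RPL6, RPS12 and RPS13. RPL6, of the large subunit, read 11.97, 11.96 and 11.98 in immobilised TBT and 11.74, 11.52 and 11.85 in control TBT, a difference of 0.27 (SE 0.12, adjusted p = 0.239). RPS12 differed by 0.14 (adjusted p = 0.255) and RPS13 by 0.30 (adjusted p = 0.29). The genes called in the femur gave 0.17 for RPLP1, 0.13 for RPL38 and -0.07 for RPL32.

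The effect in the femur minus that in the TBT had a median of 0.10, with 41 genes above 0. None passed the test, against 0.182% of all probe sets, and 3 had an unadjusted p under 0.05, against 8.8%. RPL32 had the lowest p (-0.77, SE 0.30, adjusted p = 0.444), followed by RPS28 (0.55, SE 0.23, adjusted p = 0.498) and RPL23A (0.45, SE 0.20, adjusted p = 0.509). For RPLP1 the difference of effects was 0.23 with a 95% interval of -0.06 to 0.51, and for RPL38 it was 0.24 with an interval of -0.03 to 0.52. Immobilisation was not shown to act differently on any of the genes in the 2 elements.

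All 8 skeletal muscle markers fell with immobilisation in both elements, with median differences of -2.41 on the log2 scale in the femur and -2.56 in the TBT. Their summed linear signal was 213 to 482 in immobilised femur, against 1245 to 1810 in control femur, and 213 to 376 in immobilised TBT, against 1100 to 2525 in control TBT. The lowest value of the 8 on any array was 2.44, of MYOZ2. RPL3L, which did not pass the filter, read 2.38 to 3.59 over the 23 arrays. Values this low do not show whether any transcript of MYOZ2 or RPL3L was left. Of the other muscle markers, the lowest array was at 6.5 for ACTA1, 4.36 for ACTN2 and 4.32 for TNNC2. It was at 3.45 for TNNI2, 3.26 for TTN, 3.11 for TNNT3 and 2.97 for MYBPC1. These last values lie within the range of RPL3L, so the same limit holds for these genes. The size of a fall that ends this low is uncertain. Of 6 fibrous tissue markers 1 rose and 2 fell in each element, and in the TBT 1 of 4 erythroid and 1 of 7 hypertrophic markers fell. No erythroid, leukocyte and osteoclast or cartilage marker was called in immobilised against control femur. The part of the muscle signal in the differences of the ribosomal protein genes was not tested.

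The immobilised femur set against the immobilised TBT gave a median of -0.03, with 15 genes above 0 and 34 below. After quantile normalization the median turned to 0.03, with 28 above and 22 below. No gene was called, against 2.04% of all probe sets, and 1, RPL32, had an unadjusted p under 0.05, against 13.6%. RPL32 read 12.38, 11.41 and 12.61 in immobilised femur and 12.76, 12.85 and 12.97 in immobilised TBT, a difference of -0.73 (SE 0.20, adjusted p = 0.0709). Without immobilised femur replicate 3 this was -0.96 (adjusted p = 0.0122), the only call in this comparison with any 1 array left out. Without immobilised femur replicate 2, the array at 11.41, the difference was -0.365. Over the fits with 1 array left out its adjusted p reached 0.217. RPS10 and RPS13, both of the small subunit, followed with -0.23 (adjusted p = 0.469) and -0.24 (adjusted p = 0.55). E15 control femur has no part in this comparison.

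The early stages showed small differences between the elements. At E12 the median of femur minus TBT was -0.02, with 16 genes above 0. None was called, as was 0.0% of all probe sets, and none had an unadjusted p under 0.05, against 6.39% of all probe sets. RPL37, RPS28 and RPL23 had the lowest p-values, and RPS28 rested on E12 control femur replicate 3, at 5.81 against 6.45 and 6.59 in the other 2 femur pools. At E13 the median was 0.07, with 41 genes above 0, no call (0.0% of all probe sets) and 1 gene with an unadjusted p under 0.05, against 4.91%. With array code as a block the median was 0.02 and 17 genes were below 0, within code 07 it was 0.01, with 28 above 0 and 21 below, and without E13 control TBT replicate 1 it was 0.03. The gene with the unadjusted p under 0.05 was RPS27A, which read 9.63, 9.99 and 9.37 in femur and 9.23, 9.22 and 9.45 in TBT and so overlapped (0.36, SE 0.13, adjusted p = 0.978). RPS23, a small subunit protein of the decoding centre, differed by 0.22 (adjusted p = 0.986) and RPS7 by 0.10 (adjusted p = 0.986).

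E13 minus E12, over femur and TBT, had a median of 0.01, with 29 genes above 0 and 21 below, and after quantile normalization -0.003, with 23 above and 27 below. None of these was called (0.0% of all probe sets), and none reached an unadjusted p of 0.05, against 7.47% of all probe sets. The lowest adjusted p was 0.785. RPL37, RPL3 and RPL12 led by p, and RPL3 read 11.34, 11.18 and 11.33 in femur and 11.32, 11.33 and 11.37 in TBT at E12, and 11.35, 11.44 and 11.36 in femur and 11.33, 11.34 and 11.48 in TBT at E13.

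Across the 23 arrays the genes tended to move together. Over 1225 pairs the median Pearson's r was 0.33 and 86.5% of pairs were above 0. For 1001 probe sets, taken at every 11th position among all those past the filter, the median was 0.00. With group means removed the medians were 0.24 and 0.01. RPLP1 (r = 0.91), RPL10A (0.91) and RPL38 (0.90) followed the median of the other genes most closely. RPL32 (-0.29) and RPL12 (-0.12), which sits at the base of the stalk, were the 2 genes below 0, and 29 of the 50 were above 0.5. These are descriptions over 23 arrays, and the genes share each array's hybridisation and normalisation, and most of them its high signal range.

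**Figure D4:**
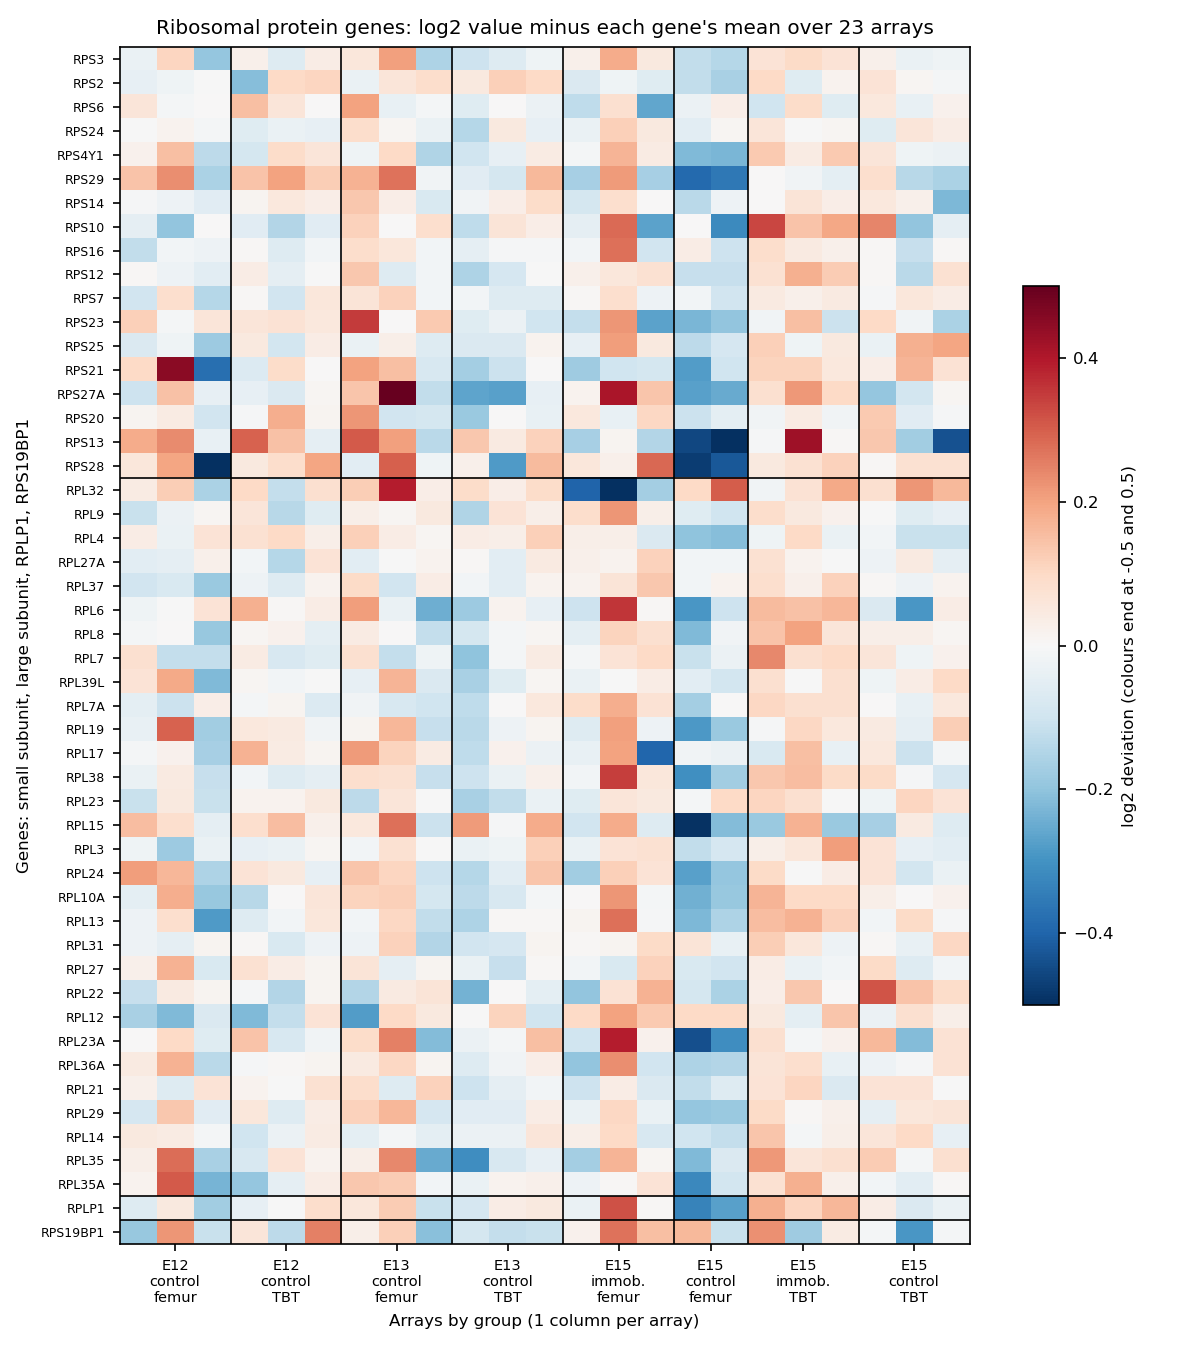
Heat map of the log2 deviation of each gene from its own mean over 23 arrays, with 1 column per array grouped by stage, treatment and element, and 1 row per gene, small subunit above large subunit, then RPLP1 and RPS19BP1. Blue is lower and red higher, and colours end at -0.5 and 0.5. The 2 columns of E15 control femur are blue for most genes, immobilised femur replicate 2 is red for 44 of 50, and the lowest value of RPL32 is in that same column.

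Other genes of translation were counted in the same fits. Of 58 mitochondrial ribosomal protein genes 51 passed the filter, of 18 other TOP mRNA genes 18 did, and of 23 ribosome assembly genes 20 did. In E15 against E12/13 control femur, where 6.97% of all probe sets were called lower, 7 of the 51 mitochondrial ribosomal protein genes fell, 3 of the 20 assembly genes and 1 of the 18 TOP mRNA genes, and none of these lists had a gene that rose. The assembly genes were NIP7 (-0.66, SE 0.14, adjusted p = 0.0071), DKC1 (-0.32, SE 0.06, adjusted p = 0.00376), the pseudouridine synthase of ribosomal RNA, and POLR1C (-0.40, adjusted p = 0.0477), a subunit of RNA polymerases I and III. The TOP mRNA gene was RACK1, a scaffold on the small subunit (-0.43, SE 0.10, adjusted p = 0.01). Among the mitochondrial genes MRPL38 (-0.57, adjusted p = 0.00853) and MRPS23 (-0.45, adjusted p = 0.00779) had the lowest p-values.

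In the TBT over these stages, with 9.46% of all probe sets called, RACK1 also fell (-0.30, adjusted p = 0.0315), as did MRPL58 (-0.38, adjusted p = 0.0152). In immobilised against control femur none of the 3 lists had a call, with medians of 0.01 for mitochondrial ribosomal proteins, 0.07 for TOP mRNA genes and 0.04 for assembly genes, beside 0.15 for the cytosolic ribosomal protein genes. At an unadjusted p under 0.05, 5 of 18 TOP mRNA genes were higher there and 0 lower, against 9.49% of all probe sets higher. The counts higher and lower were 2 and 4 of 51 for mitochondrial and 1 and 1 of 20 for assembly genes. In E15 control femur against control TBT their medians were -0.06, -0.02 and -0.16, beside -0.14, again with no call. Immobilisation of the TBT, with 5.74% of all probe sets called, gave 1 call among the 3 lists, MRPS18C (-0.52, SE 0.12, adjusted p = 0.0177). The TOP mRNA genes had a median of 0.07 there, beside 0.04 for the cytosolic ribosomal protein genes. At an unadjusted p under 0.05, 4 of 18 TOP mRNA genes were higher and 0 lower, beside 2 of 50 higher, against 10.1% of all probe sets higher. Immobilised femur against immobilised TBT, with 2.04% called, gave DKC1 (-0.25, SE 0.06, adjusted p = 0.0358).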

How the data were processed

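The deposited log2 values of 20804 probe sets on 23 arrays were used. The authors made them by RMA, which corrects background, normalises quantiles and summarises probes. The sample records name affy and RMA, the methods aroma.affymetrix and a transcript-based chip definition. Package versions and the genome build were not given in the sources used here, and no positions are reported. Gene symbols came from the platform annotation (12300 probe sets with 1 symbol, 256 with several, 8248 with none), and all 51 genes matched RefSeq by Entrez ID.

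Contrasts were fitted in R 4.3.3 with limma 3.58.1, as differences of 8 group means over 23 arrays, after the standard deviation filter of 10 stated in the methods. All p-values of genes come from these fits. SAM, which the authors used, was not run. The number of arrays limits the precision.

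Genes named are all called genes, the 3 with the lowest p per comparison, those of the study's supplement, and the extremes of level and of range over group means. RPS6, the further uncalled genes given for immobilised femur, the genes with the strongest correlation and the called genes of other lists were added with their values already known. The genes, lists and comparisons were chosen with earlier results of these data known. Alternatives were no filter, quantile normalization, array code and replicate number as blocks, and trended and robust variance. Further ones were only the compared groups, the mean of all probe sets of a gene, values within an array code, and each array left out.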

Additional observations from a re-analysis of the deposited data

How the results depend on the processing

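Left-out arrays aside, the number of called genes depended on the setting in 3 comparisons. For immobilised against control femur (3 genes called) it was 0 with no filter on low values and 0 with only the compared groups in the fit, and 0 to 3 with 1 array left out. For E15 against E12/13 control femur (5 called) it was 2 with no filter, 0 with only the compared groups, and up to 13 with 1 array of E12 or E13 left out. For E15 against E12/13 control TBT, 1 gene, RPL22, was called with trended and robust variance. With 1 array left out, immobilised femur against immobilised TBT had 0 to 1 call. The construction of the fit with only the compared groups leaves fewer samples, and the unfiltered one more probe sets to adjust over; the causes were not tested further.

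Quantile normalization moved the median difference to -0.067 for E15 control femur against TBT and to -0.084 for the stage effect of femur minus TBT, and turned RPS7 (0.032) and RPL3 (0.003) above 0 in E15 control femur against TBT; the cause was not tested. The E12 median of femur minus TBT was -0.1 within array code 09, from 1 array a side, and 0.043 within code 05, from 2 femur arrays and 1 TBT array. RPS28 in E12 femur against TBT ran from -0.373 to 0.017 with 1 array left out, the value above 0 coming without E12 control femur replicate 3. Under quantile normalization RPL38 (adjusted p = 0.0554) and RPL32 (0.069) were no longer called in immobilised femur, nor RPL4 in E15 against E12/13 control femur (-0.125, adjusted p = 0.226), and with array code as a block the same held for RPL32 (0.0554), RPL4 (0.0711) and, over the stages, RPLP1 (0.0907). Calls gained under quantile normalization were RPL23A (0.0402) and RPS4Y1 (0.0475) in immobilised femur and RPL23A (0.0482) over the stages of the femur. With array code as a block RPL24 (0.0442), RPS21 (0.0356), RPL35A (0.0467) and RPS28 (0.0379) were gained over those stages, which made 7 calls in place of 5. With array code as a block the E15 median of femur minus TBT was -0.17, with 41 genes below 0 and 0 of all probe sets called. Only the E12 groups hold code 05 beside other codes, so this fit carries the effect of 05 over from E12. The value thus cannot show whether the difference at E15 is free of code. The median SE was 0.137, against 0.098 without the block.

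With 1 array left out the medians ran from -0.155 to -0.125 for E15 control femur against TBT, from 0.12 to 0.187 for immobilised against control femur and from 0.058 to 0.119 for the immobilisation effect of femur minus TBT. In these 3 comparisons the sign held with each array left out. It changed for E12 femur minus TBT (-0.051 to 0.008), E13 minus E12 (-0.009 to 0.028) and immobilised femur minus immobilised TBT (-0.076 to 0.007). In the remaining comparisons it held.

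Between arrays of different groups, deviations from group means correlated at a mean of 0.003 for the same replicate number and -0.002 for other numbers. These pairs join arrays across all stages, elements and treatments. The values therefore do not show whether femur and TBT pools of the same stage, treatment and number shared embryos. With the replicate block, 4 genes were called for immobilised femur and 6 for E15 against E12/13 control femur.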
